A study of Mus musculus with 8 samples.

Results

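Fibroblasts and the other mesenchymal cells of the lung were followed here through 36 genes that mark them, out of 27287 genes measured in whole lungs of mice in which the cytokine interleukin-1b (IL-1b) could be switched on. The genes were picked by symbol from a list, and each was read from its brightest probe set over all 8 arrays. All 36 had at least 1 probe set. Both groups were BALB/c mice carrying the IL-1b transgene, taken at about 12 weeks of age: the 3 control lungs came from mice given water for 7 days and the 5 treated lungs from mice given doxycycline (dox), the drug that induces the transgene, for 7 days. One deposited table has a header that says 5 weeks of age instead, and which age is right was not settled. The series title calls the transgene lung-specific, but neither it nor the labels name the promoter. Effects of the drug and of IL-1b cannot be told apart, since a dox group lacking the transgene was not analysed here.

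Lung fibroblasts hold the alveolar walls and the sheaths around airways and vessels. They secrete collagens, elastic fibre proteins and proteoglycans, and they send growth factors to the epithelium beside them. Alveolar fibroblasts are known for the transcription factor Tcf21, the receptor Pdgfra and the enzyme Inmt, and adventitial fibroblasts for Pi16, Dpt and Clec3b. IL-1 acts on such cells through its receptor and the transcription factor NF-kB. Several genes on the list are not limited to fibroblasts: Vim, S100a4, Gsn and Igf1 are also made by leukocytes, Wt1 by the mesothelium, and G0s2 by fat cells.

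In the dox lungs 10 of the 36 genes fell and 2 rose. Snai2 was 1.89-fold and G0s2 1.88-fold lower, and 8 others fell by 0.33 to 0.44 on the log2 scale (Dpt, Fmod, Gsn, Meox2, Inmt, Tbx2, Ogn and Tcf21). Igf1 rose 3.46-fold and S100a4 2.91-fold. "Fell" and "rose" stand for an adjusted p below 0.05 in limma, with Benjamini-Hochberg adjustment over all 27287 genes. By that rule 4.98% of all genes changed: 1.51% fell and 3.47% rose. All genes include many dim ones, whereas most of the 36 were bright. With the dimmest 25% of genes removed, 547 of 20465 genes fell and 1038 rose. Of the 35 genes of the list that remained, 12 fell and 4 rose. The median log2 change of the 36 genes (dox minus water) was -0.22, against -0.02 for all genes, and 28 of the 36 changes lay below 0, which is 77.8% of them against 57.5% of all genes. An unadjusted p below 0.05 was found for 22 of the 36 and for 18.7% of all genes, the share to hold against such counts in the lists that follow. Such counts take falls and rises together. All 5 dox values lay below all 3 water values for 12 of the genes (6.94% of all genes) and above them for 4 (7.22% of all genes). The number that fell depended on single arrays: it was 3 without water 2, 4 without water 1, 5 without water 3 and 6 without dox 2, and 7 to 12 without any of the others. The 2 rises passed whichever array was left out.

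These values are array intensities from whole lung, where fewer cells of a type and less RNA per cell cannot be told apart. Quartiles were close between arrays (medians of 40.8 to 41.9 intensity units), Pearson's r across probe sets was 0.994 to 0.997 within groups and 0.990 to 0.995 between them, and no pair held identical values. Of the 36 genes, Twist1 alone lay below the lower quartile of probe sets (13.9 to 14.5 units) on every array. The probe set of mouse Il1b read 227 units in water and 673 in dox (log2 change 1.57 ± 0.18 SE, adjusted p = 0.00053). The labels do not say that each sample is a separate animal, so the p-values reflect only how far these samples spread, and that spread may be technical.

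**Figure D1:**
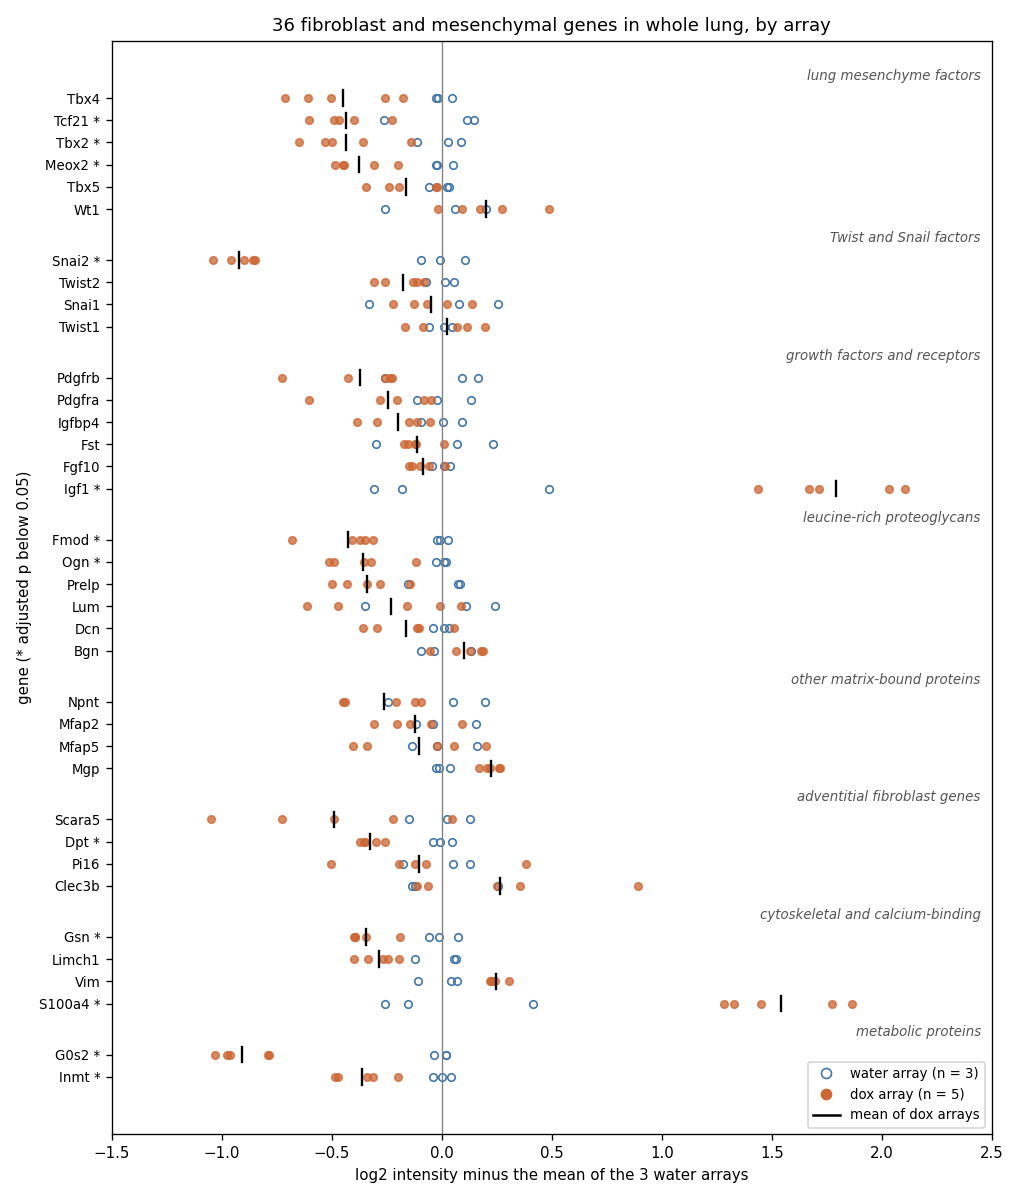
Log2 intensity of each of the 36 genes on every array, as the difference from the mean of the 3 water arrays (x axis), with genes grouped by role (y axis). Open circles are water arrays, filled circles dox arrays, the bar is the mean of the 5 dox arrays and an asterisk marks an adjusted p below 0.05. Snai2 and G0s2 stand far to the left of their water values, Igf1 and S100a4 far to the right, and most other genes lie slightly left of 0.

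The transcription factors that pattern the lung mesenchyme changed downward where they passed: of 6 such genes, Meox2, Tbx2 and Tcf21 fell, and the other 3 did not pass. Tcf21, a factor of alveolar fibroblasts and lipid-holding fibroblasts, read 2259, 3001 and 2930 units on water arrays 1 to 3 and 1780, 1928, 2053, 2317 and 1958 on dox arrays 1 to 5. Its groups overlapped, since dox 4 lay above water 1 (log2 change -0.44 ± 0.11 SE, adjusted p = 0.0495). The call was lost without water 2, water 3, dox 1, dox 2, dox 3 or dox 5 (adjusted p up to 0.165). Tbx2, a T-box repressor of the distal lung mesenchyme, read 654, 681 and 594 units in water and 409, 444, 500, 582 and 454 in dox. No dox value reached the lowest water value, though dox 4 came close (-0.44 ± 0.11 SE, adjusted p = 0.0462). Only the removal of dox 4 kept the call (adjusted p up to 0.145). Meox2, a homeobox factor of mesoderm and vessels, read 827, 873 and 831 units in water and 681, 736, 602, 620 and 619 in dox. Its groups were apart (-0.38 ± 0.08 SE, adjusted p = 0.0201), and its call was lost without water 1, 2 or 3 (up to 0.078).

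Tbx4 and Tbx5, which together guide lung bud outgrowth, did not pass. Tbx4 read 1061, 1066 and 1114 units in water and 659, 709, 762, 904 and 956 in dox, with no overlap (log2 change -0.45 ± 0.12 SE, adjusted p = 0.0549; it passed without dox 4 or dox 5). Its second probe set was dimmer and read 429 units in water and 360 in dox (-0.25 ± 0.11 SE). Tbx5 had a log2 change of -0.17 ± 0.08 SE (adjusted p = 0.333). Wt1, a factor of the mesothelium and its descendants, was 0.20 ± 0.13 SE higher (adjusted p = 0.446), and its dox values overlapped those of water. Over 11 further mesothelial markers 0 passed in limma and 3 had an unadjusted p below 0.05 (18.7% of all genes), with a median change of -0.01; Upk3b, a uroplakin, had the smallest p (-0.29 ± 0.12 SE, adjusted p = 0.201).

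Among the Twist and Snail factors, which repress epithelial genes when cells turn mesenchymal, only Snai2 passed. Snai2, also called Slug, read 653, 693 and 750 units in water and 339, 359, 387, 374 and 385 in dox. The lowest water array was far above the highest dox array, and the level was 1.89-fold lower in dox (log2 change -0.92 ± 0.07 SE, adjusted p = 5.4e-05). It passed under all 17 alternatives. Its relative Snai1 read 167, 189 and 126 units in water and 136, 174, 145, 151 and 161 in dox, with wide overlap (-0.05 ± 0.13 SE, adjusted p = 0.877); without water 2 the change turned to 0.08. Twist2 had a log2 change of -0.18 ± 0.07 SE with no overlap between groups and did not pass (adjusted p = 0.223). Twist1 read 7.59 to 9.78 units over the 8 arrays, a level at which its change is not interpreted.

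A companion list of 16 genes held other mesenchymal and Id transcription factors, partners of the Snail and Twist factors, and the cadherins Cdh1, the epithelial one, and Cdh2. Of these 16 genes, 2 fell and 1 rose, with a median change of -0.10 and 5 unadjusted p-values below 0.05 in limma. Foxf2, a forkhead factor of the mesenchyme, fell by 0.41 on the log2 scale (SE 0.07, adjusted p = 0.0103). Zeb1, another repressor of epithelial genes, fell by 0.31 (SE 0.07, adjusted p = 0.0221), a call lost without dox 2, 3 or 5 or water 1 or 3. Osr1, a factor of embryonic lung mesenchyme, rose by 0.50 (SE 0.11, adjusted p = 0.029), a call lost without dox 2, 3 or 4 or water 1 or 3.

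G0s2 and Inmt are the metabolic genes of the list, and both fell. G0s2, an inhibitor of the lipase that breaks down stored triglyceride, read 611, 634 and 635 units in water and 322, 363, 362, 306 and 319 in dox. The water arrays differed little (SD 0.03 on the log2 scale) and lay far above every dox array (log2 change -0.91 ± 0.08 SE, 1.88-fold lower, adjusted p = 6.71e-05). It passed under all 17 alternatives. Inmt, a methyltransferase abundant in lung, read 19481, 18405 and 18909 units in water and 14961, 13636, 15245, 16487 and 13522 in dox. All dox arrays were below all water arrays (-0.36 ± 0.08 SE, adjusted p = 0.0237), but removing any water array, or dox 2, ended the call (up to 0.0862).

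G0s2 is abundant in fat, and markers of fat cells were measured beside it. Of 13 such markers 3 fell, 1 rose and 10 had an unadjusted p below 0.05 in limma, with a median log2 change of -0.43. Their summed level ran from 4878 to 5932 units in water and from 3239 to 5053 in dox. The largest part of that sum was Lpl, at 2603 to 3750 units in water and 2392 to 2870 in dox. Lpl also counts among the alveolar fibroblast markers given below. The number of the 13 that fell was 7 without dox 4, 0 without water 3, and 1 without water 1 or 2 or dox 2, 3 or 5. Thrsp, a lipogenic protein, fell by 1.19 (SE 0.29, adjusted p = 0.0425; lost without dox 2, 3 or 5 or any water array). Cidea, a lipid droplet protein, fell by 0.44 (SE 0.08, adjusted p = 0.0131; lost without water 2 or 3), and the adipogenic receptor Pparg, which alveolar macrophages also make, rose by 0.37 (SE 0.07, adjusted p = 0.011). Adipoq, a fat cell hormone chosen after its values were seen, did not pass (log2 change -1.84, adjusted p = 0.0642). It read 187 to 262 units in water, 220 in dox 4 and 29.4 to 63 in the other dox arrays. G0s2 was lowest in dox 4 (306 units). The part of fat cells in the fall of G0s2 was not tested.

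**Figure D2:**
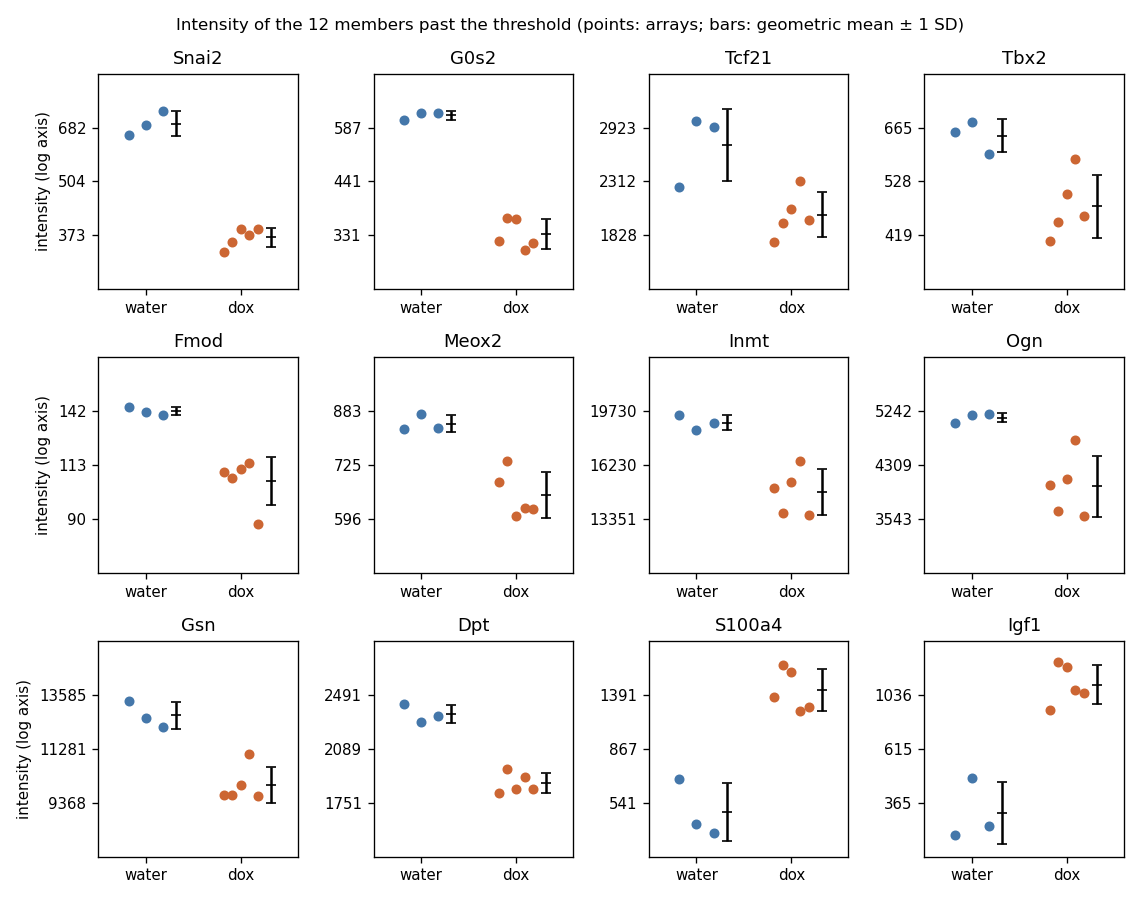
Intensity (y axis, log scale, drawn with its own range in each panel) of the 12 genes with an adjusted p below 0.05, in 3 water and 5 dox arrays (x axis). Points are arrays and bars are the geometric mean ± 1 SD on the log2 scale. Among the genes that fell, Tcf21 is the only one in which a dox array lies above a water array. In Igf1 and S100a4, which rose, all dox arrays lie above all water arrays.

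The growth factors and receptors split: Igf1 rose, and 5 others did not pass. Igf1, the insulin-like growth factor that both fibroblasts and macrophages secrete, read 267, 463 and 291 units in water and 893, 1418, 1351, 1083 and 1050 in dox. Every dox array was above every water array, and water 2 was the highest control. The level was 3.46-fold higher in dox (log2 change 1.79 ± 0.19 SE, adjusted p = 0.000384). Of 6 probe sets for Igf1, the second brightest gave the same picture (198 units in water and 608 in dox, 1.62 ± 0.19 SE), and 4 lay below the lower quartile on every array with changes from -0.10 to 0.10. Averaging all 6 gave a change of 0.57, which still passed (adjusted p = 0.00276).

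The partners of Igf1 went both ways. The list of 15 held genes for its receptors, their adaptors, binding proteins and the regulators of these, and the related ligand Igf2. Of the 15, 4 fell, 1 rose and 7 had an unadjusted p below 0.05 in limma, with a median change of -0.10. Igfbp3, the main binding protein of the circulation, rose from 577 to 1307 units (log2 change 1.18 ± 0.07 SE, adjusted p = 7.81e-06). Igfbp6 fell by 0.51 (SE 0.12, adjusted p = 0.0312; lost without dox 2 or 5 or water 1 or 3) and Igfbp2 by 0.49 (SE 0.11, adjusted p = 0.0332; lost without dox 1 or water 1, 2 or 3). The other falls were those of the adaptor Irs1 (-0.46 ± 0.09 SE, adjusted p = 0.0182) and the receptor Igf1r (-0.34 ± 0.09 SE, adjusted p = 0.046). The number that fell was 0 without water 1, 1 without water 2 or 3, and 2 without dox 1 or 2. Igfbp4, the binding protein on the list, had a log2 change of -0.20 ± 0.09 SE with overlapping groups and did not pass (adjusted p = 0.252).

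Both receptors for platelet-derived growth factor (PDGF) had lower means without passing. Pdgfra, the receptor of alveolar fibroblasts and their precursors, read 3841, 4272 and 3607 units in water and 2566, 3203, 3686, 3769 and 3386 in dox, so that dox 3 and dox 4 lay within the water range (log2 change -0.24 ± 0.12 SE, adjusted p = 0.316). Its second probe set changed by -0.25 ± 0.16 SE. Pdgfrb, the receptor of pericytes and adventitial cells, read 758, 719 and 566 units in water and 409, 503, 564, 578 and 574 in dox, and dox 4 and dox 5 lay just above water 3 (-0.37 ± 0.13 SE, adjusted p = 0.151). Of 5 genes for PDGF ligands and the receptor-like protein Pdgfrl, Pdgfc rose from 52.1 to 93.2 units (0.84 ± 0.11 SE, adjusted p = 0.0016), and 0 fell in limma (4 had an unadjusted p below 0.05). Pericyte markers gave 1 fall of 13, that of Ndufa4l2 (-0.33 ± 0.07 SE, adjusted p = 0.0211; lost without water 1, 2 or 3). Their median change was -0.14, with 9 changes below 0 and 4 above. Of the 13, 9 had an unadjusted p below 0.05 in limma.

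Fgf10, the fibroblast signal that drives branching and maintains epithelial progenitors, and Fst, the secreted trap for activins, showed small differences. Fgf10 read 182 to 192 units in water and 169 to 189 in dox (log2 change -0.09 ± 0.06 SE, adjusted p = 0.524). Of 14 further genes of fibroblast growth factor signalling, 6 had an unadjusted p below 0.05 in limma. Among them 2 fell: Fgf1 by 0.41 (SE 0.09, adjusted p = 0.0302) and the feedback inhibitor Spry1 by 0.34 (SE 0.08, adjusted p = 0.031). Fgf1 lost its call without dox 2 or 3 or water 1, 2 or 3, and Spry1 without dox 1, 3, 4 or 5 or water 1 or 2, so that 0 or 1 fell whichever array was left out. Fst read 629, 813 and 909 units in water and 695, 711, 714, 779 and 688 in dox (-0.11 ± 0.11 SE, adjusted p = 0.644), and its change was 0.0040 without water 3. Of 11 activin partners 0 passed in limma and 4 had an unadjusted p below 0.05; Acvr1b, a receptor, had the smallest p (0.19 ± 0.06 SE, adjusted p = 0.117).

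The small leucine-rich proteoglycans coat collagen fibrils and set their thickness and spacing. Of the 6 on the list, Fmod and Ogn fell and 4 did not pass. Fmod (fibromodulin) read 145, 142 and 140 units in water and 110, 107, 111, 114 and 88.6 in dox. The groups were apart, and dox 5 was the lowest array (log2 change -0.43 ± 0.09 SE, adjusted p = 0.0183; lost without water 1, 2 or 3, up to 0.0664). Ogn (osteoglycin) read 5019, 5161 and 5179 units in water and 4008, 3642, 4100, 4719 and 3585 in dox, also apart (-0.36 ± 0.09 SE, adjusted p = 0.0488), a call kept only when dox 4 was the array left out (up to 0.128).

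Prelp, which links basement membranes to collagen, read 6601, 6558 and 5608 units in water and 4408, 4633, 5139, 5634 and 4925 in dox. Dox 4 was just above water 3, and the gene did not pass (log2 change -0.34 ± 0.09 SE, adjusted p = 0.0655; it passed without dox 4). Dcn (decorin), the most widely used fibroblast marker of the family, read 3651, 3596 and 3470 units in water and 3306, 2784, 3328, 3708 and 2910 in dox. The highest value of all was dox 4, and the difference did not pass (-0.16 ± 0.09 SE, adjusted p = 0.393). Bgn (biglycan) changed by 0.10 ± 0.08 SE (adjusted p = 0.563) and Lum (lumican) by -0.23 ± 0.18 SE (adjusted p = 0.538), both with overlapping groups. Of 10 other members of the proteoglycan family, Podn rose by 0.38 (SE 0.09, adjusted p = 0.0369), a call lost without any array other than dox 3, and 0 fell in limma (3 had an unadjusted p below 0.05).

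The microfibril and other matrix-bound proteins did not pass. Mgp, an inhibitor of calcification abundant in airway and vessel walls, read 16397, 17154 and 16564 units in water and 18762, 20058, 19281, 19466 and 19967 in dox. All dox arrays were above all water arrays by a small amount (log2 change 0.22 ± 0.06 SE, 1.17-fold), with an adjusted p of 0.0549. Npnt (nephronectin), an integrin ligand of alveolar fibroblasts and type 1 cells, changed by -0.26 ± 0.12 SE (adjusted p = 0.263), and by -0.07 ± 0.15 SE in its second probe set. The microfibril proteins Mfap2 (-0.12 ± 0.10 SE, adjusted p = 0.569) and Mfap5 (-0.10 ± 0.14 SE, adjusted p = 0.757) overlapped between groups.

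Collagens and other matrix proteins around them were measured as a companion list. Of 19 genes, 2 rose, 0 fell in limma and 8 had an unadjusted p below 0.05, with a median change of 0.18. Fn1 (fibronectin) rose from 2036 to 3034 units (0.58 ± 0.12 SE, adjusted p = 0.0223; lost without dox 2 or 5 or water 1 or 3), and Col14a1, a collagen of adventitial fibroblasts, by 0.44 (SE 0.08, adjusted p = 0.00896). The main fibrillar collagens, chosen after their values were seen, did not pass: Col1a1 changed by 0.41 (adjusted p = 0.238), Col1a2 by 0.44 (adjusted p = 0.109) and Col3a1 by 0.28 (adjusted p = 0.211), with overlapping groups.

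Of the adventitial fibroblast genes Dpt fell and 3 did not pass. Dpt (dermatopontin), which binds decorin and collagen, read 2414, 2278 and 2327 units in water and 1808, 1956, 1833, 1903 and 1830 in dox. Both groups were tight (log2 SD of 0.04 for water, 0.05 for dox) and apart (log2 change -0.33 ± 0.06 SE, adjusted p = 0.0106). This call held whichever array was left out (adjusted p up to 0.0438). Scara5, a ferritin receptor, read 197, 222 and 238 units in water and 132, 106, 187, 225 and 155 in dox; dox 4 lay among the water arrays and the others below them (-0.49 ± 0.20 SE, adjusted p = 0.229). Clec3b (tetranectin) read 1181, 1535 and 1170 units in water and 1231, 1187, 1641, 1530 and 2385 in dox, and dox 5 stood highest (0.26 ± 0.20 SE, adjusted p = 0.547). Pi16, a marker of the adventitial reserve fibroblast, overlapped (-0.10 ± 0.16 SE, adjusted p = 0.795), with dox 1 lowest at 121 units and dox 5 highest at 224.

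Further markers were divided by fibroblast type. Of 18 alveolar fibroblast markers 3 fell and 0 rose in limma, with a median change of -0.24 and 8 unadjusted p-values below 0.05. They included the amino acid transporter Slc38a5 (-0.56 ± 0.11 SE, adjusted p = 0.0187; lost without water 1 or 2) and the growth factor Figf, now called Vegfd (-0.50 ± 0.09 SE, adjusted p = 0.00829). That number was 1 without water 2 and 2 without water 1. Of 20 adventitial markers 2 fell and 3 rose, with a median of -0.04 and 10 unadjusted p-values below 0.05 in limma. Mmp3, a matrix protease of activated fibroblasts, rose from 79.8 to 225 units (1.49 ± 0.21 SE, adjusted p = 0.00232) and the alarmin Il33 by 0.60 (SE 0.14, adjusted p = 0.035; lost without dox 1, 2 or 5 or water 1 or 2). Which cells of the whole lung these rises came from was not tested. The remaining rise was that of Col14a1, already counted in the collagen list above. Gas1, a surface protein of growth-arrested cells, fell by 0.26 (adjusted p = 0.0429), a call lost whichever array was left out. Figf counts in both the alveolar and the adventitial list. Of 20 genes that inflamed fibroblasts are known to switch on, and that epithelium and macrophages make too, 10 rose and 0 fell in limma (13 had an unadjusted p below 0.05), led by the acute-phase protein Saa3 (5.62 ± 0.18 SE, adjusted p = 8.04e-08) and the neutrophil chemokine Cxcl1 (4.59 ± 0.21 SE, adjusted p = 1.06e-06).

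The cytoskeletal and calcium-binding proteins went both ways. S100a4, named fibroblast-specific protein but made by many leukocytes, read 663, 447 and 415 units in water and 1359, 1813, 1701, 1210 and 1248 in dox. Its lowest dox array was far above its highest water array (log2 change 1.54 ± 0.18 SE, 2.91-fold, adjusted p = 0.000583). Vim (vimentin), the intermediate filament of mesenchymal cells and leukocytes, read 7757, 7892 and 6992 units in water and 8827, 9313, 8772, 8923 and 8803 in dox. All dox arrays were above all water arrays, by 1.18-fold, and the gene did not pass (0.24 ± 0.06 SE, adjusted p = 0.0568).

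Gsn (gelsolin), which severs actin filaments, read 13287, 12527 and 12155 units in water and 9613, 9622, 9957, 11070 and 9578 in dox. The groups were apart, with dox 4 nearest to the water arrays (log2 change -0.35 ± 0.07 SE, adjusted p = 0.019; lost without water 1 or 2, up to 0.0748). Limch1, an actomyosin regulator, read 8583, 8636 and 7591 units in water and 6266, 6546, 6972, 7221 and 6850 in dox, also apart (-0.29 ± 0.07 SE, adjusted p = 0.0511; it passed without water 3). Its second probe set changed by the same amount (-0.29 ± 0.07 SE), and a dimmer one, at 48.7 units in water and 49.0 in dox, by 0.01.

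Leukocytes also make Igf1, S100a4 and Vim, and their markers were higher in the same lungs. Of 18 such markers 12 rose and 0 fell in limma (15 had an unadjusted p below 0.05), with a median change of 0.69. Their summed level ran from 34104 to 40812 units in water and from 46180 to 54087 in dox. The largest part of that sum was Lyz2, at 18588 to 19164 units in water and 19892 to 21073 in dox. Lyz2 itself did not pass in limma (log2 change 0.12, adjusted p = 0.297). The endotoxin co-receptor Cd14 rose by 2.40 (SE 0.15, adjusted p = 1.08e-05) and the neutrophil alarmin S100a9 by 1.38 (SE 0.28, adjusted p = 0.0182; lost without water 2 or 3). The same dox arrays, 2 and 3, held the highest values of Igf1, of S100a4 and of the leukocyte sum. Vim differed: dox 2 was its highest dox array (9313 units) and dox 3 its lowest (8772 units). Among water arrays, water 1 was highest for S100a4 and for the leukocyte sum, whereas water 2 was highest for Igf1 and for Vim. The part of leukocytes in the values of these 3 genes was not tested.

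The sequence just before the start of transcription is shown for Igf1, S100a4 and G0s2, which with Snai2 changed most, so that the start of each gene can be read beside its values. The 3 stretches are the 250 bases upstream of the start listed by RefSeq (build GRCm38.p6), read 5′ to 3′ on the strand of the gene. They lie at chr10:87860861-87861110 (plus strand) for Igf1, at chr3:90603520-90603769 (plus strand) for S100a4 and at chr1:193273189-193273438 (minus strand) for G0s2. Capitals mark matches, on either strand, to the TATA box TATAAA, the CCAAT box CCAAT, the E-box CAGGTG that Snail-type repressors bind, and the NF-kB motif. The motifs did not overlap each other in these stretches.
Igf1: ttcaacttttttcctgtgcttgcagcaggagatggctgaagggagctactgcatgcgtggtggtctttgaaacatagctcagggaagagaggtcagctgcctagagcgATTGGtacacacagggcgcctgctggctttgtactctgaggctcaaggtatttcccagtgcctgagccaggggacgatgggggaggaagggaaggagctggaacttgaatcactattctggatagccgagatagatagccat
S100a4: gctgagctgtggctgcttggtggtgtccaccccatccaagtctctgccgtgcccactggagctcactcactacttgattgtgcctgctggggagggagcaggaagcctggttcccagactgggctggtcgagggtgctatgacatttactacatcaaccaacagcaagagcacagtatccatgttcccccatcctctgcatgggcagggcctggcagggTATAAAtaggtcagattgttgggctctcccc
G0s2: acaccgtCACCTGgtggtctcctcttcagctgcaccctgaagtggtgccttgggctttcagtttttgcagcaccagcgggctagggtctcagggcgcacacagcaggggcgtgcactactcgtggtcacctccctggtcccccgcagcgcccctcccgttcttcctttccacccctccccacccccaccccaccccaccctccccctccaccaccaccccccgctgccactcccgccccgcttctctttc
S100a4 held TATAAA 31 bases before its start, Igf1 a CCAAT box on the other strand 142 bases before, and G0s2 the E-box 243 bases before. No match to the NF-kB motif was in these 3 windows. Of 27025 genes with a listed start, 13.0% held TATAAA in this window, 34.5% CCAAT, 17.1% CAGGTG and 7.03% the NF-kB motif. RefSeq starts were matched for 24 of the 36 genes, of which 8 held TATAAA, 8 CCAAT, 4 CAGGTG and 2 the NF-kB motif.

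The median level of the 36 genes differed between the dox arrays, and whether the genes varied together was not tested. The median difference of the 36 genes from the water mean was -0.35 on the log2 scale in dox 1, -0.26 in dox 2, -0.20 in dox 5, -0.13 in dox 3 and -0.08 in dox 4, whereas the 3 water arrays lay between -0.04 and 0.05. Dox 1 was the lowest of the 5 dox arrays for 21 of the 36 genes, against 19.7% of all genes. Dox 4 was the highest for 17 of them, against 17.5% of all genes. The order was not the same for the 10 genes that fell: dox 1 and dox 5 were each lowest for 4 of them, and dox 4 was highest for 6. Endothelial markers also had their lowest median in dox 1 (-0.40), and so had smooth muscle markers (-0.52) and the collagen list (-0.11). Alveolar type 1 markers had theirs in dox 5 (-0.31). The leukocyte sum was 47301 units in dox 1 and 46180 in dox 4, the lowest pair among the dox arrays.

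Other lung lists gave context for the size of these changes. Smooth muscle markers had a median of -0.25, 0 falls in limma (7 of 13 had an unadjusted p below 0.05) and 1 rise (the Hedgehog antagonist Hhip, 1.54 ± 0.09 SE, adjusted p = 7.81e-06). Endothelial markers had a median of -0.27, and all 12 changes lay below 0. Of the 12, 10 had an unadjusted p below 0.05 in limma. There were 2 falls (Ednrb at -0.57, adjusted p = 0.0347, and Gpihbp1 at -0.43, adjusted p = 0.0454). These numbered 0 without water 1 or 2 or dox 2 or 3, and 1 without dox 1, 4 or 5. Alveolar type 1 markers had a median of -0.22, and 7 of 11 had an unadjusted p below 0.05 in limma. There were 2 falls (Igfbp6 and Sema3a, the latter at -0.31, adjusted p = 0.0466). These numbered 0 without water 1 or 3 or dox 2 or 5, 1 without water 2 or dox 1 or 3, and 3 without dox 4. Of 10 cartilage markers 0 passed in limma and 2 had an unadjusted p below 0.05 (18.7% of all genes); Cytl1 had the smallest p (-0.52 ± 0.15 SE, adjusted p = 0.0889). Differences between these lists and the 36 genes were not tested.

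**Figure D3:**
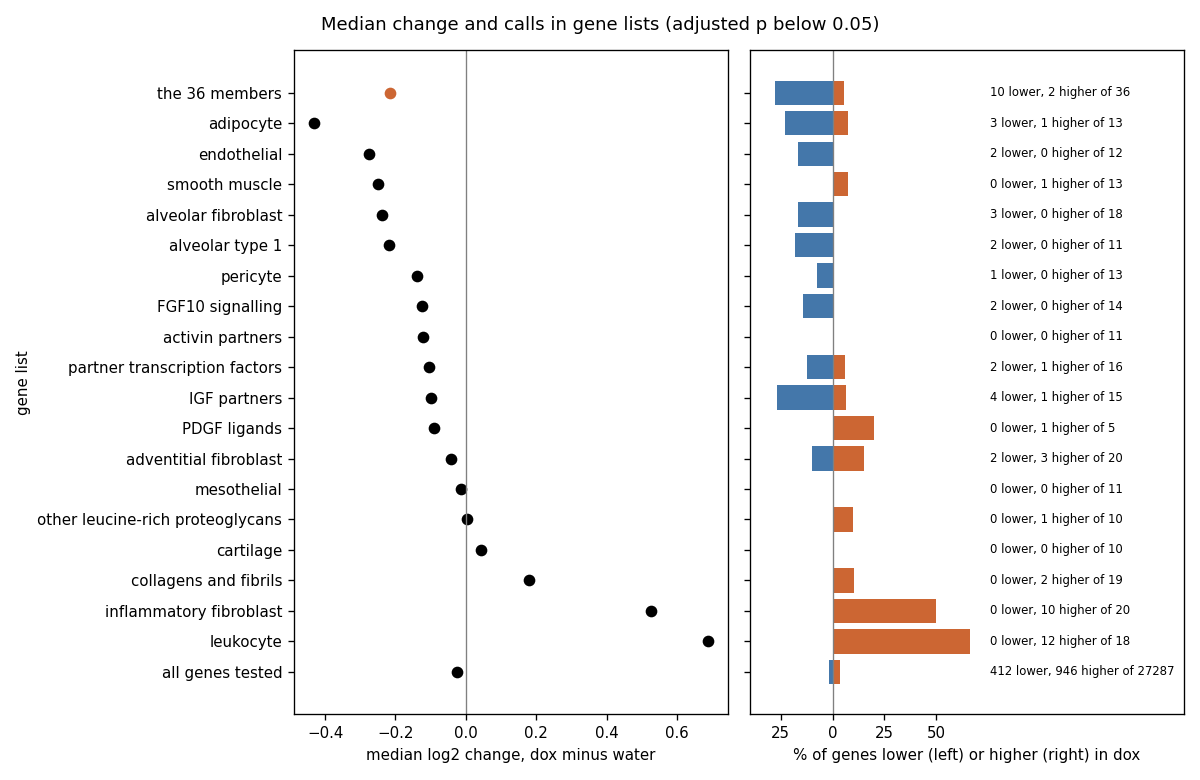
Median log2 change from water to dox (left panel) and the share of genes that were lower or higher in dox at an adjusted p below 0.05 (right panel) for the 36 genes, 18 companion lists and all 27287 genes (y axis). The median of the 36 genes is -0.22, between those of alveolar type 1 cells (-0.22), alveolar fibroblasts (-0.24), smooth muscle (-0.25) and endothelium (-0.27) on the left and -0.02 for all genes on the right, while leukocyte and inflammatory fibroblast lists lie to the right.

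**Figure D4:**
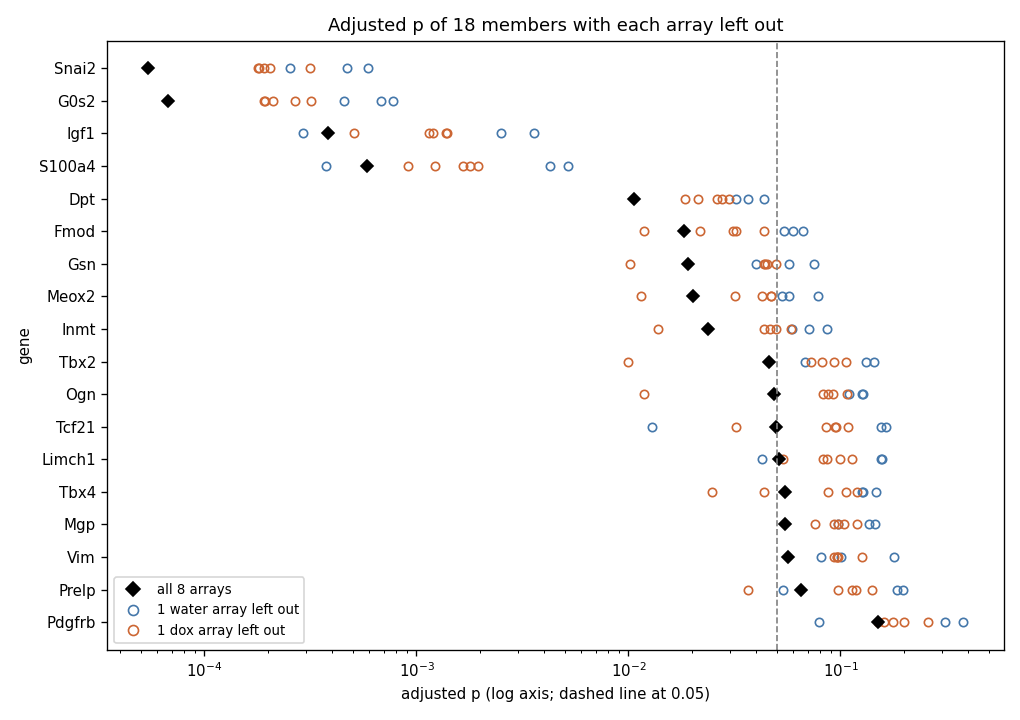
Adjusted p (x axis, log scale) of the 18 genes of the list with the lowest values (y axis), from all 8 arrays (diamonds) and with 1 water or 1 dox array left out (open circles). Snai2, G0s2, Igf1, S100a4 and Dpt stay left of the dashed line at 0.05 throughout, and the other 7 genes past the threshold cross it.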

How the data were processed

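Whole-lung RNA was measured on a 1-colour expression array, from 3 water and 5 dox samples. Each probe set has 1 linear intensity per array as deposited by the authors, whose processing notes name RMA without a version. RMA equalises the distributions of the arrays, so a change in total RNA cannot be seen, and bright transcripts are compressed. Gene symbols came from the annotation columns of a deposited table, joined by probe set name. A further 8 intensity columns of that table have names that match no sample label and were not used. Of 43681 probe sets, 36993 had 1 symbol, 1 had several and 6687 had none. The 27287 symbols were each read from their brightest probe set.

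Values were taken to log2 and tested with limma 3.58.1 (R 4.3.3), using lmFit, eBayes, 2-sided p-values and Benjamini-Hochberg adjustment over all genes, at a threshold of 0.05. Changes are given with limma's SE, levels are geometric means, and n is 3 water and 5 dox arrays throughout. Detection calls were not used, and the number of arrays limits the precision. The computation was tested on simulated data with 50 genes changed by each fold. It called 14 of 50 at 1.25-fold, 30 at 1.5-fold and 48 at 2-fold. The simulated data held 152 calls in all, against 1358 in the real data, so these shares need not hold here. The 36 genes and the companion lists were chosen with earlier results of these data known. Array values are given for those of the 36 genes that were past the threshold. They are also given for 6 genes chosen whatever their result (Tcf21, Pdgfra, Pdgfrb, Dcn, Vim and Igf1). Array values of others were added after their values were seen. For most genes of the companion lists only changes or group means are given. In each companion list, up to 2 falls and 2 rises past the threshold with the largest change are named, or the gene with the smallest p. Col1a1, Col1a2, Col3a1, Adipoq, Irs1, Igf1r, Lpl and Lyz2 were named in addition, after their values were seen. Replicate numbers did not pair the arrays: deviations from the group means correlated at 0.008, 0.061 and -0.161 between same-numbered arrays, and most (0.314) between water 3 and dox 5. The 17 alternatives were 9 other settings and each of 8 arrays left out. Sequences are from RefSeq (GRCm38.p6).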

Additional observations from a re-analysis of the deposited data

Results flagged for a closer look

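Dixon's test was applied to the 5 dox values of 69 genes, the 36 and others named by rule. Chance alone flags about 1 in 20 such groups. It marked 3 genes, all of them among the 36. Fmod in dox 5 read 88.6 units, below the other dox arrays at 107 to 114, and the gap was 0.752 of the range. Vim in dox 2 read 9313 units, above the others at 8772 to 8923, with a gap of 0.714 of the range. Gsn in dox 4 read 11070 units, above the others at 9578 to 9957, with a gap of 0.732 of the range.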

How the results depend on the processing

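With 1 array left out, the number of the 36 genes that passed ran from 5 to 14 (12 with all arrays) and the number that fell from 3 to 12 (10 with all arrays), while the 2 rises stayed 2. With the replicate block, fitted on arrays 1 to 3 of each group and so on 6 arrays, 5 genes passed and 3 fell. Of the 10 falls, Snai2 and G0s2 kept their call and 8 lost it, Dpt among them (adjusted p = 0.146), while Tbx4, not past the threshold without the block, fell (adjusted p = 0.018). Removing the dimmest 25% of genes gave 4 rises, as did the trend and robust prior; both added Vim and Mgp. The number that fell was 8 with array weights, 7 with arrays centred on their medians, 13 with repeated quantile normalization and 13 with the trend and robust prior. The median log2 change ran from -0.26 to -0.16 with 1 array left out and stayed below 0 under every alternative. Changes near 0 turned sign: Twist1 was -0.047 with the replicate block and -0.018 to 0.073 with 1 array left out, Snai1 -0.22 to 0.075 and Fst -0.26 to 0.0040. The cause of these shifts was not tested. Updated gene symbols changed no call among the 36 genes. Of all genes, the block left 99 that fell and 503 that rose (412 and 946 without it). The trend and robust prior gave 661 falls, and leaving out water 1, water 2, dox 2, dox 5 or dox 1 gave 204, 207, 222, 255 or 264. Low signal limits Twist1.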
